A study of Mus musculus with 4 samples.

Results

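Genes of protein folding and degradation in the endoplasmic reticulum (ER) were examined in the lens of mice with a conditional knockout of Celf1 (Celf1 cKO) and of Control mice. The set was chosen by name, as every array probe filed under Hspa5, Hsp90b1, Calr, Canx, Pdia3, Pdia4, Pdia6, Herpud1, Xbp1 or Wfs1. It held 12 probes for 10 genes, of 45263 probes and 28843 genes read in all. Of the 10 genes, 8 were above background and could be compared. Between Celf1 cKO and Control lenses, Wfs1 was elevated, Pdia6 was reduced, and the other 6 did not pass the test.

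Each array carried RNA of 1 lens at postnatal day 6, with 2 Celf1 cKO lenses and 2 Control lenses, lettered A and B in each group. The Celf1 cKO mice carried a germline Celf1 lacZ knock-in allele opposite a Celf1 flox allele, in which Pax6GFPCre, a Cre driver active in the lens lineage, removes exon 5. The Control mice were Celf1 lacZKI/+, so that both groups shared the lacZ knock-in allele, and the sources used here do not say that the Controls carried Cre. Both groups had a mixed background of C57BL/6 and FVB. The letters name separate lenses, and nothing says that lenses of a group came from different litters, so p-values measure the spread between these lenses only. The tissue is bulk lens, in which fewer cells of a type and less RNA per cell cannot be told apart.

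The lens fiber cell makes large amounts of protein and then clears its organelles, the ER among them, as it matures. Proteins that enter the ER are held by Hsp70-type and Hsp90-type chaperones (Hspa5, also called BiP, and Hsp90b1, also called GRP94), by the lectin chaperones Calr and Canx, which bind sugar-bearing chains, and by protein disulfide isomerases. Chains that fail to fold are sent back to the cytosol and degraded, a step that Herpud1 serves at the ER membrane. When unfolded protein builds up, the sensors IRE1, ATF6 and PERK start the unfolded protein response. In it, Xbp1, ATF6 and ATF4 raise transcription of chaperones and degradation genes.

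Much of this control acts through short elements near the transcription start, and the promoters of the 10 genes were read for them. The sequences are from RefSeq (GRCm38.p6), and all 10 genes were matched among 32851 promoter windows. The letters searched, on both strands, were the ER stress element ERSE (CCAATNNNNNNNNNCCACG), ERSE-II (ATTGG and CCACG with 1 base of any kind between them), the core of the unfolded protein response element (TGACGTG) and an ATF4 composite site (TTGCATCA). ERSE and ERSE-II share the letters CCACG, and no matches overlapped in these genes. Below are the 250 bases upstream of the start for the best known ER stress gene, for the gene reduced in Celf1 cKO lenses, for the degradation gene and for the gene elevated in Celf1 cKO lenses, with matched letters in capitals.
Hspa5 (chr2:34771840-34772089, + strand): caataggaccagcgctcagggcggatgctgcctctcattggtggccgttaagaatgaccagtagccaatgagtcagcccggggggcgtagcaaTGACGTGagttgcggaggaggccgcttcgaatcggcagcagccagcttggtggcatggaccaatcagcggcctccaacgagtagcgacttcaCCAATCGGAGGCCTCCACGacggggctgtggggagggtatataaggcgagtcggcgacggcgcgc
Pdia6 (chr12:17266339-17266588, + strand): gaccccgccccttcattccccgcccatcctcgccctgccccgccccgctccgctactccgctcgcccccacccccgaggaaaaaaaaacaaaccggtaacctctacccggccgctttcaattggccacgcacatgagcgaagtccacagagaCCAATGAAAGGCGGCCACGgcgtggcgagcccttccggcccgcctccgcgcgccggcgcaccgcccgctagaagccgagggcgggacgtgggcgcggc
Herpud1 (chr8:94386179-94386428, + strand): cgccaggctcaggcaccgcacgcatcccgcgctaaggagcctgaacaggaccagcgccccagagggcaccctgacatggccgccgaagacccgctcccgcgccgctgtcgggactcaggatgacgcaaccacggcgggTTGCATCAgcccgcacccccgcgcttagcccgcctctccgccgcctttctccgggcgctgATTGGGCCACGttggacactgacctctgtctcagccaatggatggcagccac
Wfs1 (chr5:36988983-36989232, - strand): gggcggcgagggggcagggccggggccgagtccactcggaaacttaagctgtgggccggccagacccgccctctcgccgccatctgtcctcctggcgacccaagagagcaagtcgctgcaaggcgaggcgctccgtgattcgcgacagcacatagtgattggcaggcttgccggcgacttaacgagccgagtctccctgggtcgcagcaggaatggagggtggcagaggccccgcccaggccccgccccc

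ERSE was found in 5 of the 10 genes (Hspa5, Hsp90b1, Calr, Canx and Pdia6) and in 39 of all windows (0.119%). Hsp90b1 held 2 matches. In Pdia6 the match lay 98 to 80 bases before the start, and in Hspa5 it lay 65 to 47 bases before it. ERSE-II was found in Herpud1, 52 to 42 bases before the start, and in 12 of all windows (0.0365%). The ATF4 composite site was also in Herpud1, 112 to 105 bases before the start, and in 0.895% of windows. The core element TGACGTG was in Hspa5 and in 2.01% of windows. None of these letters stood in the windows of Wfs1, Pdia3, Pdia4 or Xbp1, which says nothing of the factors themselves. A match is a run of letters and not a measured site.

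The arrays of the genotypes differed in their bright probes and in the number of probes detected, which bears on each value given here. The 99th percentile of unnormalized intensity was 3208.7 and 3444.3 for cKO A and B, against 2158.4 and 1699.2 for Control A and B, while the medians overlapped (47.9 and 49.1 against 48.3 and 43.1). Between 16261 and 16925 probes were detected on the Celf1 cKO arrays and between 14180 and 14542 on the Control arrays. The targeted gene Celf1 was itself reduced (log2 fold change -1.43 ± 0.19, SE, adjusted p = 0.00992 by limma), a call that was lost without Control B and with no detection filter (range over all settings -1.67 to -0.60). Sex is not stated in the labels, and Xist was at least 6.09-fold higher in Celf1 cKO lenses while the Y-linked Ddx3y was reduced (log2 fold change -3.09 ± 0.55, SE), so that genotype and sex cannot be told apart. The log2 signal of Ddx3y was 6.81 in cKO A and 4.83 in cKO B, above background in both, against 8.99 and 8.82 in the Controls. Kept probes of the ER genes were each read on 23 to 55 beads, with a standard error over beads of 2.07% to 10.9% of the signal.

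Background-corrected signal intensity was quantile normalized, log2 values were taken, and the groups were compared with limma over all 11517 genes tested. Calls required an adjusted p below 0.05 together with an absolute log2 fold change above 0.58. Of all genes tested, 11.7% were called, 6.02% as elevated and 5.64% as reduced. Of the 8 ER genes tested, 2 were called, 1 in each direction. In 4 of the 8 both Celf1 cKO lenses lay above both Control lenses, against 32.6% of all genes, and in 2 both lay below, against 29.7%. Groups that did not overlap were thus 6 of 8, against 62.3% of all genes. The median log2 fold change was 0.19 over the 8 genes and 0.0097 over all genes.

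**Figure D1:**
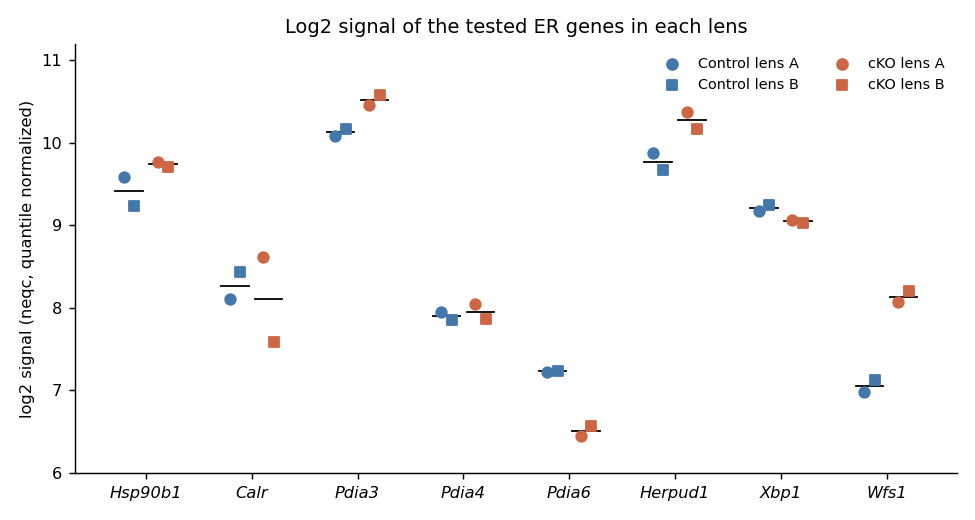
Log2 signal (vertical axis) of the 8 ER genes above background, with a point for each lens (circles A, squares B; blue Control, orange Celf1 cKO) and a bar at each group mean. The Celf1 cKO lenses lie above the Controls for Wfs1 and below them for Pdia6, and the Calr values of the Celf1 cKO lenses, 8.62 and 7.59, enclose both Control values. Heights of different genes are not comparable because each comes from its own probes.

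Wfs1, which encodes an ER membrane glycoprotein mutated in Wolfram syndrome and linked to ER calcium and to the degradation of ATF6, was the gene of the set with the largest change. Its log2 signal was 8.07 in cKO A and 8.20 in cKO B, against 6.98 in Control A and 7.13 in Control B. The groups did not overlap, and lenses of the same group differed by 0.13 (Celf1 cKO) and 0.15 (Control). The log2 fold change was 1.08 ± 0.14 (SE, 95% interval 0.74 to 1.42, adjusted p = 0.00945 by limma), which is 2.12-fold. Its size exceeded that of 96.9% of genes tested.

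Both Celf1 cKO lenses also lay above both Controls before any scaling. The probe of Wfs1, placed by the files at chr5:37357874-37357923 on the minus strand with no genome build named, had an unnormalized intensity of 376.5 and 439.9 in cKO A and B, against 137.1 and 119.9 in Control A and B. The standard error over beads was 15.7 and 23.5 in the Celf1 cKO lenses and 7.96 and 9.77 in the Controls, which covers technical error of each array only. On the authors' own scale the intensity was 307.4 and 354.6 against 137.3 and 156.8. Wfs1 was called under each of 12 other ways of processing the values, of which 1 was added after the values were seen, and the call was lost when cKO B was left out (adjusted p = 0.0753 by limma).

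Pdia6, a protein disulfide isomerase that rearranges disulfide bonds and is a known target of the unfolded protein response, was reduced in Celf1 cKO lenses. Its log2 signal was 6.45 in cKO A and 6.57 in cKO B, against 7.23 in Control A and 7.24 in Control B. The groups did not overlap, and the Control lenses were nearly equal. The log2 fold change was -0.73 ± 0.14 (SE, 95% interval -1.05 to -0.40, adjusted p = 0.0224 by limma), so that Control lenses were 1.66-fold higher.

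This difference appeared with the scaling between arrays. The unnormalized intensity of the Pdia6 probe was 136.9 ± 6.80 (SE over beads) in cKO A, 157.4 ± 7.46 in cKO B, 156.5 ± 10.2 in Control A and 127.1 ± 13.8 in Control B, and the groups overlapped. On the authors' rank-invariant scale the values were 88.8 and 103.4 in Celf1 cKO lenses and 165.7 and 170.7 in Controls. With no normalization between arrays the log2 fold change was 0.049, where the median of all genes was 0.57. The call was also lost without background correction (-0.53), with normexp at an offset of 50 (-0.56) and without cKO A, cKO B or Control B (adjusted p 0.121, 0.123 and 0.0798 with limma).

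A further probe, filed by the authors under 1700015E05Rik and assigned to Pdia6 through RefSeq, was noticed after the values were seen. Its log2 signal was 5.31 and 4.89 in the Celf1 cKO lenses and 5.60 and 5.91 in the Controls. Both Celf1 cKO lenses again lay below both Controls, and the log2 fold change was -0.66 ± 0.20 (SE, adjusted p = 0.0742 over all probes by limma), which was not called. With both probes averaged, Pdia6 was called (-0.69, adjusted p = 0.0296 by limma).

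**Figure D2:**
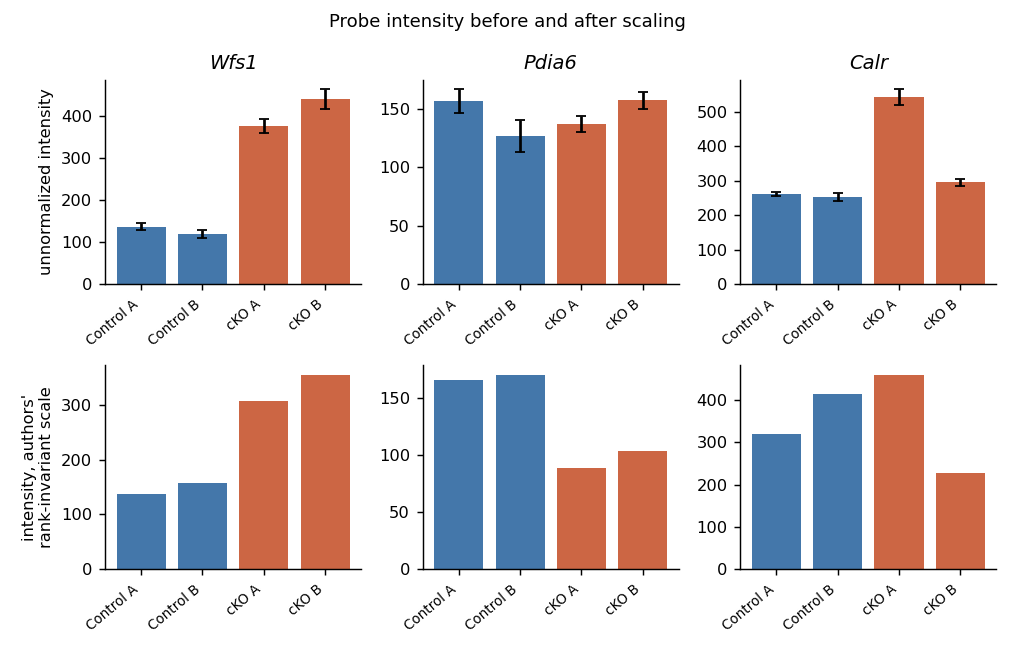
Probe intensity on a linear scale for Wfs1, Pdia6 and the detected Calr probe in each lens, unnormalized in the upper row (error bars, standard error over beads) and on the authors' rank-invariant scale in the lower row. Wfs1 was brighter in both Celf1 cKO lenses on both scales, while the groups of Pdia6 overlapped before scaling (127.1 to 157.4) and separated after it.

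Other disulfide isomerases gave different values. Pdia3, which works with the lectin chaperones on glycoproteins, had a log2 signal of 10.46 and 10.58 in cKO A and B, against 10.08 and 10.17 in Control A and B. Both Celf1 cKO lenses lay above both Controls, as they did before scaling (1842.7 and 2134.8 against 936.8 and 783.2) and on the authors' scale (1645.5 and 1861.4 against 1304.3 and 1437.7), but the log2 difference of 0.39 ± 0.14 (SE, 95% interval 0.06 to 0.72, adjusted p = 0.106 by limma) was not called. Pdia4, an isomerase of ER chaperone complexes, had a log2 signal of 8.04 and 7.86 in Celf1 cKO lenses and 7.95 and 7.85 in Controls. The groups overlapped, and the log2 fold change was 0.05 ± 0.14 (SE, 95% interval -0.29 to 0.39, adjusted p = 0.829 by limma). It was -0.038 without cKO A and 0.14 without cKO B. With no normalization between arrays, where the median of all genes was 0.57, Pdia3 (1.24) and Pdia4 (0.90) were called.

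Herpud1, which organises the complex that carries misfolded proteins out of the ER, had a log2 signal of 10.38 and 10.17 in cKO A and B, against 9.88 and 9.67 in Control A and B. Both Celf1 cKO lenses lay above both Controls. The log2 fold change was 0.51 ± 0.15 (SE, 95% interval 0.14 to 0.87, adjusted p = 0.0743 by limma), or 1.42-fold, and was not called. Its probes gave 0.56 ± 0.17 (chr8:96919164-96919213) and 0.46 ± 0.16 (chr8:96918986-96919035), and with each of them both Celf1 cKO lenses were higher. The unnormalized intensity of the first was 2084.9 and 1973.6 in Celf1 cKO lenses against 972.6 and 632.7 in Controls. Herpud1 was called when the medians of detected probes were instead made equal between arrays (0.60, adjusted p = 0.0305 by limma). It was also called with no normalization between arrays (1.36), where the median of all genes was 0.57. This is the gene whose window, printed above, holds both ERSE-II and the ATF4 composite site, and a relation of these letters to its level was not tested.

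Xbp1, the transcription factor that IRE1 activates by splicing its mRNA, had a log2 signal of 9.07 and 9.03 in cKO A and B, against 9.17 and 9.25 in Control A and B. Both Celf1 cKO lenses lay below both Controls, but the gaps were small and the log2 fold change of -0.16 ± 0.14 (SE, 95% interval -0.48 to 0.16, adjusted p = 0.448 by limma) was not called and was 0.69 with no normalization between arrays. Before scaling the order was the opposite, with an intensity of 727.3 and 758.8 in Celf1 cKO lenses and 517.8 and 424.2 in Controls, and on the authors' scale it was 627.6 and 638.2 against 692.8 and 744.5. Of the single Xbp1 probe the sources used here do not say whether it tells the spliced form from the unspliced.

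Neither of the chaperones with a tested probe was called. Hsp90b1 had a log2 signal of 9.77 and 9.71 in cKO A and B, against 9.59 and 9.24 in Control A and B. Both Celf1 cKO lenses were higher, with unnormalized intensities of 1157.7 and 1198.1 against 680.6 and 419.9, and the log2 fold change was 0.33 ± 0.16 (SE, 95% interval -0.06 to 0.71, adjusted p = 0.219 by limma). It was 0.15 without Control B and 0.50 without Control A, and 1.18 and called with no normalization between arrays, where the median of all genes was 0.57. The single probes of Hspa5 and Canx were not well above background on any array. Their unnormalized intensities were 42.8 to 52.2 and 41.6 to 51.0, with detection p-values of at least 0.11 and 0.154, so that no comparison was made. These probes give no level for the best known ER stress chaperone or for calnexin.

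Calr, the soluble lectin chaperone that also binds ER calcium, differed more within Celf1 cKO lenses than between groups. Its log2 signal was 8.62 in cKO A and 7.59 in cKO B, against 8.11 in Control A and 8.43 in Control B. The gap of 1.04 between the Celf1 cKO lenses was larger than that of 99.5% of genes tested, where the median gap was 0.139. The log2 fold change was -0.17 ± 0.32 (SE, 95% interval -0.93 to 0.59, adjusted p = 0.751 by limma), and it was -0.69 without cKO A, 0.34 without cKO B and 0.69 with no normalization between arrays. This value rests on a single detected probe (chr8:87368500-87368549, minus strand), whose unnormalized intensity was 543.3 ± 22.1 (SE over beads) in cKO A, 296.5 ± 9.95 in cKO B, 262.4 ± 6.40 in Control A and 253.1 ± 12.6 in Control B. Bead error is technical and does not cover the spread between animals. The other Calr probe was not above background on any array. The probe sequence is printed because it alone sets the Calr level.
Calr probe: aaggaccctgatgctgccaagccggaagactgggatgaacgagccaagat

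**Figure D3:**
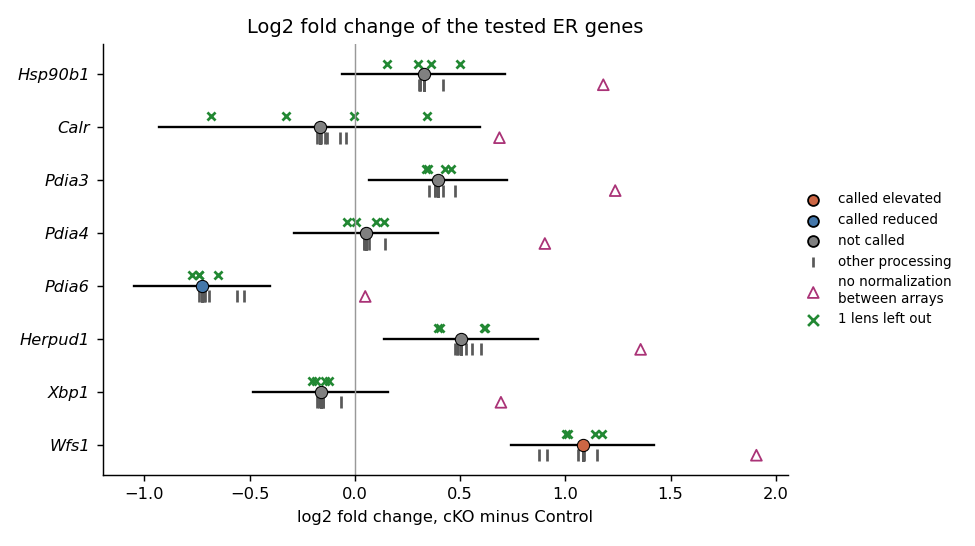
Log2 fold change (Celf1 cKO minus Control, horizontal axis) of the 8 tested ER genes, with large points for the main value and lines for the 95% interval. Ticks mark other processing, triangles the values without normalization between arrays, and crosses the values with 1 lens left out. Wfs1 stayed above 0 in all of these, while Pdia6, Xbp1 and Calr were above 0 without normalization between arrays.

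The wider ER machinery was read from 8 lists of genes by role, which held 160 genes beyond the 10 above, with 118 tested. Of these, 18 were elevated and 3 were reduced, which is 17.8% of those tested against 11.7% of all genes, and the median log2 fold change was 0.16. The count includes Chac1, Trib3 and Atf3, which passed the detection filter through the Celf1 cKO lenses alone. Hyou1, Cnpy4 and Ero1b passed it in the same way and were not called, but they enter the medians. With their Control values raised to the lowest signal of detected probes, the list medians were 0.24 (chaperones and cochaperones) and 0.15 (disulfide formation). Outside the list of the PERK and ATF4 arm, 14 of 108 genes were called (13.0%), a share near that of all genes. Of these, 12 were elevated and 2 reduced, where 6.02% and 5.64% of all genes were, and this split was not tested. On the authors' scale 14 of 118 list genes were called, where 1191 of 11517 genes were called in all. With medians of detected probes made equal between arrays, 23 of 118 were called, against 2692 of 11517 in all. With no normalization between arrays these counts were 93 of 118 and 5789 of 11517, and with no detection filter 3 of 158 and 208 of 28843. The count over the lists also fell with any 1 lens left out, most of all without cKO B. In the list of chaperones and cochaperones, 2 of 20 were elevated and 0 reduced, with a median of 0.24. These were Dnajb9, a cochaperone of Hspa5 induced by ER stress, with a change of 1.09 ± 0.16 (SE, adjusted p = 0.0119 by limma), and the prolyl isomerase Ppic with 0.99 ± 0.23. Both calls were lost without cKO B, without Control B and with no detection filter, and that of Ppic also without Control A.

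In glycan-dependent folding, 1 of 10 genes was elevated, where 11.7% of all genes were called (median 0.28), the cargo lectin Lman1, with a log2 fold change of 0.69. In disulfide formation, 2 of 11 were elevated (18.2%, median 0.15). P4hb, the founding protein disulfide isomerase, had a log2 signal of 10.99 and 10.89 in Celf1 cKO lenses and 10.08 and 10.34 in Controls, and the difference was 0.73 ± 0.15 (SE, adjusted p = 0.0291 by limma). The membrane-bound thioredoxin-like Tmx4 had 0.89 ± 0.14 (SE, adjusted p = 0.0136 by limma). Pdia6 and these relatives were thus called in opposite directions, though each of these calls was lost with some lens left out, those of P4hb and Lman1 with any 1 lens, that of Tmx4 without cKO B or Control B, and that of Pdia6 as given above.

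In ER-associated degradation, 2 of 26 genes were elevated and 0 reduced, which is 7.69% called against 11.7% of all genes, with a median log2 fold change of 0.10. The called genes were Rnf103, a ubiquitin ligase of the ER membrane, at 0.66, and Jkamp, a membrane protein linked to proteasome recruitment, at 0.58, and both calls were lost when any 1 lens was left out. Among translocon, signal peptidase and N-glycosylation genes, 3 of 24 were elevated (median 0.13). These were the signal peptidase subunit Spcs1 at 0.84, and the translocation partner Tram1 and the channel subunit Sec61g at 0.66 each. Under 12 other ways of processing, Tram1 was called in 8, Sec61g in 10 and Spcs1 in 11. All 3 calls were lost without cKO B and without Control B, and those of Tram1 and Sec61g also without cKO A. Among ER calcium genes, 1 of 10 was elevated and 1 reduced. The calcium pump Atp2a2 differed by 0.98 ± 0.18 (SE, adjusted p = 0.0224 by limma) on the log2 scale, and the calcium release channel Itpr2 by -1.87 ± 0.22 (SE, adjusted p = 0.00682 by limma). Both calls were lost without Control B and with no detection filter, and that of Atp2a2 also without cKO B.

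In the list of stress sensors and their transcription factors, 7 of 12 were tested, and the median log2 fold change was 0.02. The ER-anchored factor Creb3 was elevated by 0.79 and Nfyb, a subunit of the factor that binds the CCAAT box, was reduced (-0.62), with 0.16 and no call under no normalization between arrays and no call when any 1 lens was left out. The Creb3 call was lost without cKO A, cKO B or Control B, with equal medians and with no detection filter. The sensor genes Ern1 (IRE1) and Atf6 were not well above background on any array. In the list of the PERK and ATF4 arm, 6 of 10 genes were elevated and 1 was reduced, where 6.02% and 5.64% of all genes were. Chac1, Trib3 and Atf3 passed the detection filter through the Celf1 cKO lenses alone, and without them 3 of 7 were elevated and 1 reduced. The calls of Ppp1r15a and Nupr1 were lost without cKO B and without Control B, and that of Atf3 without Control A and without Control B. Under other processing Atf3 was called in 5 of 11 settings and Nupr1 in 9 of 12. The list median was 0.83, or 0.70 with genes not above background in Controls set to their bound.

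Ddit3, which encodes the stress factor CHOP, had a log2 signal of 8.89 and 8.57 in Celf1 cKO lenses and 5.73 and 5.78 in Controls. The log2 change reached 2.97 ± 0.16 (SE, adjusted p = 9.15e-04 by limma), and it was called under all 12 other ways of processing and with each lens left out. Chac1, a glutathione-degrading enzyme induced by ATF4 and CHOP, was at least 8.61-fold higher in Celf1 cKO lenses, where the bound is set by the lowest signal of detected probes. The factor Cebpb was elevated by 1.33 ± 0.18 (SE, adjusted p = 0.0105 by limma). Ppp1r15a, which encodes the phosphatase subunit GADD34, was reduced (-1.51 ± 0.29, SE, adjusted p = 0.0231 by limma).

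**Figure D4:**
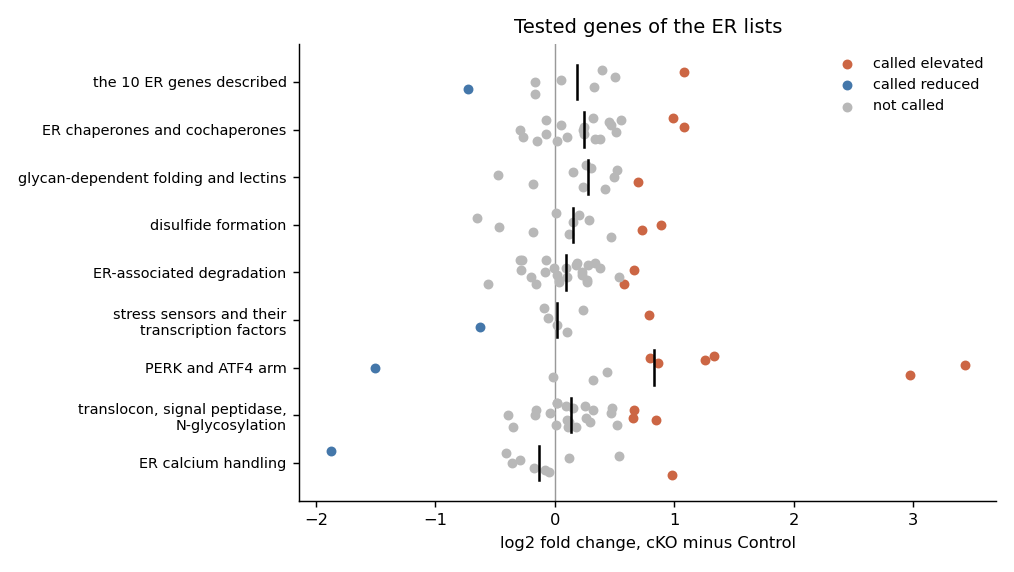
Log2 fold change (Celf1 cKO minus Control, horizontal axis) of each tested gene in the ER lists, with black bars at list medians, orange points for genes called elevated, blue for reduced and grey for not called. The bar of the PERK and ATF4 list stands at 0.83 and those of the other lists between -0.13 and 0.28. Fitted values of genes above background in no Control lens, such as Chac1, are not bounds.

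Markers of other cells were read beside these values, and their part in the results was not tested. Of 12 lens fiber markers 10 were tested, and Bfsp2 (-0.76) and Dnase2b (-1.60) were reduced, with a log2 of the summed signal of 16.9 to 17.0 in Celf1 cKO lenses and 17.2 in each Control lens. Of 5 lens epithelium markers 4 were tested, and Foxe3 (-0.79) and Pdpn (-0.72) were reduced. The log2 of the summed signal of those tested was 10.5 to 10.6 in Celf1 cKO lenses and 10.9 to 11.1 in Controls. Of 8 macrophage markers 5 were tested, with a log2 of their summed signal of 7.24 to 7.32 in Celf1 cKO lenses and 6.95 to 6.98 in Controls. Cd68 and C1qb were elevated, at least 1.26-fold and 1.22-fold. Both passed the detection filter through the Celf1 cKO lenses alone, as did C1qc, while Csf1r (-0.11) and Aif1 (-0.06), detected in both groups, were not called, and the list median with bounds was 0.19. Of 5 vessel markers Emcn was elevated (1.12). The log2 of the summed signal of all 5 was 8.02 to 8.05 in Celf1 cKO lenses and 7.90 to 7.93 in Controls. The median log2 fold change of the vessel markers was -0.06, and Kdr (-0.59), Tek (-0.26), Pecam1 (-0.06) and Cdh5 (0.58) were not called. Of 4 blood markers 3 were tested, and Slc4a1 was reduced (-1.03), while Hbb-b1 (0.05) and Hba-a1 (-0.08) were not called, and the summed levels overlapped (8.45 to 9.56 against 9.03 to 9.30). Of 7 retina and 6 pigment cell markers only Rom1 (4.80 to 4.87 against 4.28 to 4.32) and Pmel (4.58 to 4.77 against 4.77 to 5.38) were tested, and neither was called. Sag, Gnat1 and Tyr, all 4 muscle markers and Pax6, a defining gene of the lens epithelium, were not above background on any array.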

How the data were processed

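RNA of 4 single lenses was read on Illumina MouseWG-6 v2.0 BeadChips, 1 array per lens. The authors deposited unnormalized intensity and an intensity scaled by the rank-invariant method, each with detection p-values from negative control beads. The genome build of probe positions is not given in the sources used here. Of 45281 probes, 18 lines with shifted cells were left out, and 40 date-like symbols were restored. Probes were named through RefSeq (GRCm38.p6), with 29586 matched by Entrez identifier, 2759 through accessions, 2214 through symbols and 2370 through synonyms.

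The limma function neqc (limma version 3.58.1 under R version 4.3.3, offset 16) was applied to unnormalized intensity, which was quantile normalized to log2 values. Quantile normalization gives all arrays the same distribution, so changes are relative to other genes. The 16262 probes detected (p-value below 0.05) on 2 or more arrays were averaged per gene. Groups were compared with lmFit and eBayes, two-sided, with Benjamini-Hochberg adjustment over 11517 genes. Called genes also had a mean log2 signal over 4.6. The authors' edgeR test, a model for counts, was not applied to intensities. The number of arrays limits precision, and with 2 lenses a group an exact permutation test gives no p below 0.333.

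The 10 genes, the lists, tests and alternatives were chosen with earlier results of these data known. The text names Celf1, the 10 genes and, of each list, at most 3 called genes in each direction by size of change. Xist and Ddx3y were named as a check of sex, and other genes named (Trib3, Atf3, Nupr1 and uncalled list genes) were likewise chosen after their values were seen. For genes above background in neither lens of a group, a bound is given. The fit was tested on simulated data. Sequences were read with Python version 3.11.15.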

Additional observations from a re-analysis of the deposited data

How the results depend on the processing

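The counts of called genes, the ER genes, their median and the called genes of the lists were recomputed under 12 other ways of processing, 1 of them (a probe added to Pdia6) chosen after seeing the data, and with each lens left out. Genes called numbered 1342, against 718 without background correction, 789 with normexp at an offset of 50, 5789 with no normalization between arrays (all-gene median 0.57), 2692 with medians of detected probes made equal between arrays (all-gene median -0.19) and 208 with no detection filter. Called ER genes numbered 2, against 1 in the first and in the second of these, 7 with no normalization and 3 with equal medians. Genes called in the lists numbered 21, against 93 with no normalization, 23 with equal medians, 14 on the authors' scale and 3 with no detection filter. The median of the ER genes was 0.19, against 1.04 with no normalization and 0.07 with no detection filter. The latter is over all 10 genes, with Hspa5 and Canx near background and the undetected Calr probe averaged in. The ER median lay 0.47 above all genes with no normalization and with equal medians and 0.08 above with no detection filter, against 0.18. Elevated genes were 51.6% of calls, against 97.7% with no normalization and 24.8% with equal medians.

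With a lens left out, genes called ranged from 158 (without cKO B) to 1356 (without Control A), with 582 without cKO A and 171 without Control B. ER genes called ranged from 0 to 2, list genes from 2 to 17, and the median of the ER genes above all genes from 0.07 to 0.35. The letters are not said to pair lenses, and A minus B differences of the groups correlated at -0.011 across genes. With the letter as a replicate block, 1675 genes and 2 ER genes were called, and the block changed no call among the ER genes.

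Directions reversed with no normalization for Calr (0.69), Pdia6 (0.049) and Xbp1 (0.69), and with a lens left out for Pdia4 (-0.038 to 0.14) and Calr (-0.69 to 0.34). The causes were not tested. Slide as a block was not run, since slides are not given in the sources used here.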
